A study of Homo sapiens with 8 samples.

Results

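CHEK1 and 9 other genes of the DNA damage and replication checkpoint were followed across 8 RNA sequencing libraries of human multiple myeloma cell lines. The members were fixed by name: CHEK1, CHEK2, ATR, ATRIP, CLSPN, WEE1, PKMYT1, CDC25A, CDC25B and CDC25C. They are 10 of the 24351 genes to which the deposited transcript table could be summed, and they hold 75 of its 88209 transcripts. All 10 genes and 45 of the 75 transcripts passed the filter for testing, which asked for an FPKM of 1 or more in 2 or more libraries.

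The libraries come from H929 and ARP1, cell lines of multiple myeloma, in which plasma cells turn malignant. Each line was profiled with CHEK1 overexpression, with the control of overexpression, with CHEK1 knockdown, and with the control of knockdown. Each of these 4 genotypes had 1 library per line, and the pair of lines gives n = 2 per genotype. How CHEK1 was raised or lowered, whether the cells were a clone, and whether controls carried a vector are not in the labels. Nothing says that libraries came from separate cultures, so a p-value here reflects no more than the spread among these samples. Levels are FPKM, in which the fragments of a transcript are divided by its length and by the size of the library, and a gene's level is the sum over its transcripts.

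The checkpoint works as a relay. ATR, held at stretches of bare single-stranded DNA by its partner ATRIP, phosphorylates CHK1, the kinase encoded by CHEK1, with claspin (CLSPN) as the adaptor, while CHK2 (CHEK2) serves the ATM branch that answers double-strand breaks. Both kinases restrain the CDC25 phosphatases, which remove the inhibitory phosphates that WEE1 and PKMYT1 place on cyclin-dependent kinases, so that cells with damaged or unfinished DNA do not enter mitosis. Replicating tumour cells lean on this relay, and inhibitors of ATR, CHK1 and WEE1 have been tried as cancer drugs.

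Markers of plasma cells were the most abundant of the marker sets, though unevenly. The summed level of 8 plasma cell markers ran from 1270 to 2487 FPKM per library, with SDC1 at 150 to 223 FPKM, XBP1 at 425 to 976, TNFRSF17 at 23.0 to 196, CD38 at 17.8 to 28.7 and SLAMF7 at 0.0778 to 27.4. Sums were 0 to 3.75 FPKM for 4 B cell markers, 0.379 to 14.3 for 5 T and NK cell markers, 1.21 to 2.89 for 5 myeloid markers and 1.59 to 17.1 for 6 stromal and epithelial markers. The protocol text names adipose RNA, and 4 adipose markers summed to 0.0262 to 0.164 FPKM. Of the T and NK cell markers, CD3D and NKG7 were listed at 0 in all 8 libraries, while GNLY ran from 0.136 to 14.2 FPKM. In bulk RNA of this kind, fewer cells of a type and less RNA per cell cannot be told apart.

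CHEK1 had the highest mean level of the members, 82.4 FPKM over the 8 libraries, above 92.3% of tested genes. CDC25B followed at 54.0 FPKM, then PKMYT1 at 41.4, WEE1 at 38.2, CDC25A at 34.2, CHEK2 at 18.0, CLSPN at 16.3, ATR at 14.6, CDC25C at 9.77 and ATRIP at 9.61. FPKM is per length, so these levels can be set beside each other, and each gene's range over the libraries overlapped that of its neighbour in this order.

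**Figure D1:**
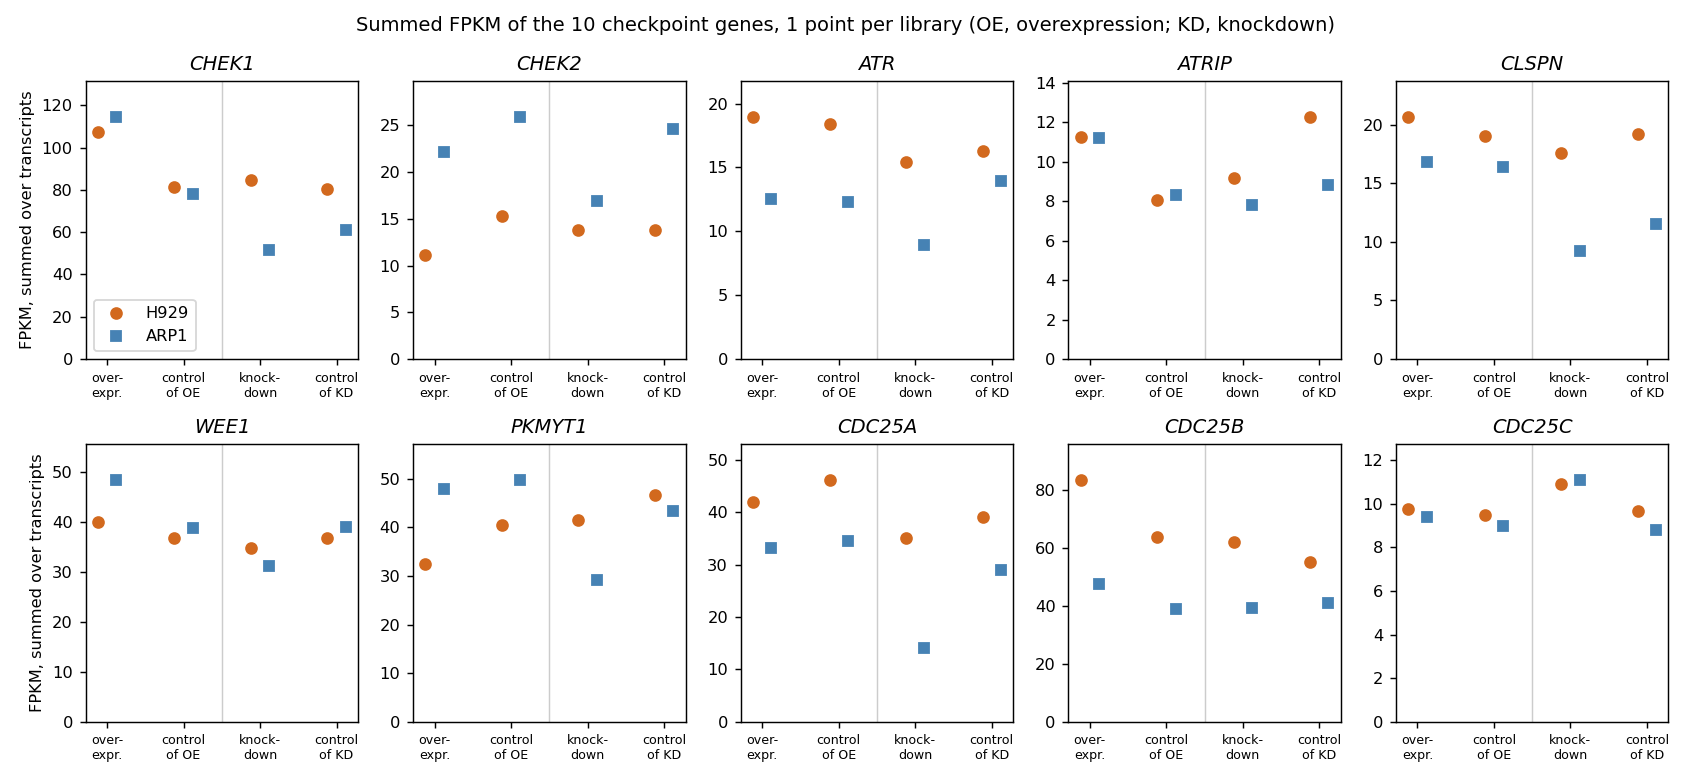
Summed FPKM of each member (vertical axis) in the overexpression library, its control, the knockdown-labelled library and its control (left to right), with 1 point per library, circles for H929 and squares for ARP1. The overexpression libraries hold the most CHEK1 of each line (107 and 114 FPKM), the H929 points lie above all ARP1 points for ATR, CLSPN, CDC25A and CDC25B and below them for CHEK2, and CDC25A is lowest in the ARP1 knockdown-labelled library (14.1 FPKM).

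CHEK1 itself, the gene the study altered, was higher in the overexpression library of each line than in any other library of that line, but it was not lower in both libraries labelled knockdown. The gene lies at chr11:125625136-125676255 on the plus strand (GRCh38). Its level was 107 FPKM in the H929 overexpression library and 114 in the ARP1 one, against 81.6 and 78.2 FPKM in their controls. The libraries labelled knockdown held 84.8 FPKM in H929 and 51.6 in ARP1, against 80.7 and 61.0 FPKM in their controls. Each overexpression library thus stood above its own control, while the H929 library labelled knockdown stood above its control and the ARP1 one below. By limma the log2 fold change of FPKM plus 1 was 0.47 for overexpression (SE 0.20, 95% interval -0.01 to 0.95, adjusted p = 0.994) and -0.08 for the knockdown-labelled libraries (SE 0.20, 95% interval -0.57 to 0.40, adjusted p = 0.903). Neither passed the threshold, an adjusted p under 0.05 over all 14905 genes tested. Since the targeted gene did not bear out the knockdown label in H929, those libraries are called knockdown-labelled throughout.

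The table lists 14 CHEK1 transcripts, of which 8 are complete in GENCODE release 29 and 6 are open-ended, meaning that their annotated coding sequence has no known start or end. The 4 complete transcripts that hold the full coding sequence of 1428 bases (CHEK1-203, CHEK1-204, CHEK1-206 and CHEK1-216) summed to 47.0 FPKM in the H929 overexpression library and 37.8 in the ARP1 one, against 41.5 and 31.7 in their controls. In the knockdown-labelled libraries the same transcripts summed to 36.1 FPKM in H929 and 28.3 in ARP1, against 35.3 and 26.9 FPKM in their controls. Full-length CHEK1 was therefore 1.13 and 1.19 times its control with overexpression in H929 and ARP1, and 1.02 and 1.05 times its control under the knockdown label.

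The open-ended transcripts, all of which cover the 5′ part of the gene, had ratios to their controls farther from equality in both lines and both comparisons. They summed to 35.0 FPKM in the H929 overexpression library and 48.6 in the ARP1 one, against 21.4 and 26.7 FPKM in their controls, or 1.63 and 1.82 times. Under the knockdown label they summed to 24.4 FPKM in H929 and 10.6 in ARP1, against 21.3 and 17.4 FPKM in their controls. Open-ended transcripts thus made up 32.6% and 42.5% of CHEK1 in the overexpression libraries of H929 and ARP1, against 26.3% and 34.1% in their controls, and 28.8% and 20.5% in the knockdown-labelled libraries against 26.4% and 28.5%. With gene sums rebuilt without open-ended transcripts, a setting chosen after seeing the data, the log2 fold change of CHEK1 was 0.30 for overexpression (limma, SE 0.14, adjusted p = 0.991) and -0.03 for the knockdown label (SE 0.14, adjusted p = 0.953).

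**Figure D2:**
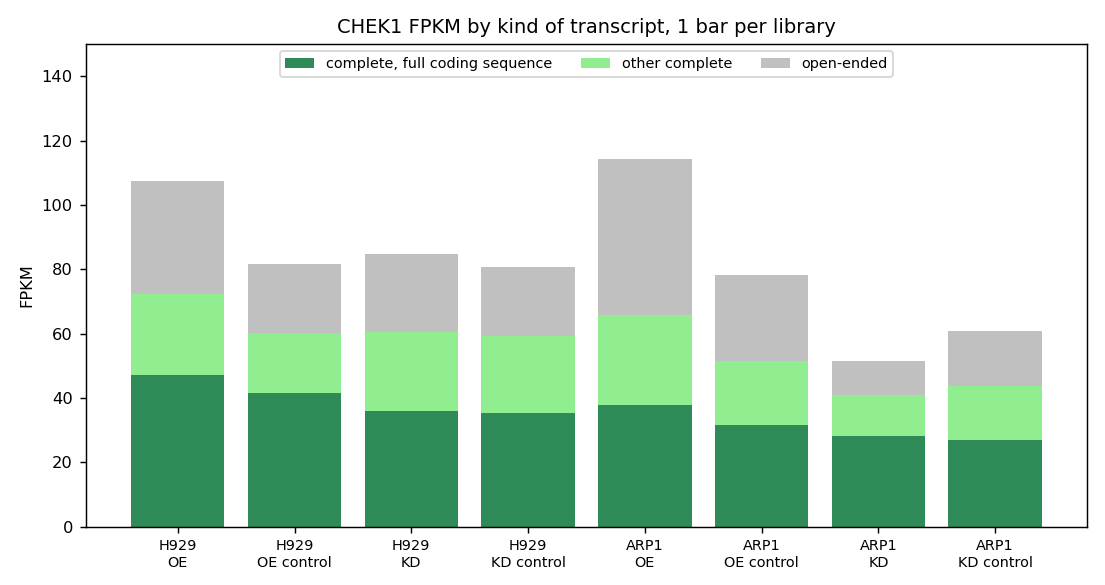
CHEK1 FPKM (vertical axis, from 0) in each library, stacked by kind of transcript: complete with the full coding sequence, other complete, and open-ended. The dark segment runs from 26.9 to 47.0 FPKM and is not lower in either knockdown-labelled library than in its control, while the grey open-ended segment runs from 10.6 to 48.6 FPKM.

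Among complete transcripts, CHEK1-218 differs from the full-length forms by lacking the third exon, 224 bases at chr11:125627607-125627830. Its annotated coding sequence is 1146 bases long and starts at another ATG late in the preceding exon. The kinase domain of CHK1 lies in the amino-terminal part of the protein, the part to which this exon contributes. The sequences, from GENCODE release 29 on GRCh38, show how the forms differ. In the first, from the start codon of CHEK1-203 into the fourth exon, capitals mark the third exon, and in the other, from the start codon of CHEK1-218 through the exon that follows, capitals mark that start codon.
CHEK1-203: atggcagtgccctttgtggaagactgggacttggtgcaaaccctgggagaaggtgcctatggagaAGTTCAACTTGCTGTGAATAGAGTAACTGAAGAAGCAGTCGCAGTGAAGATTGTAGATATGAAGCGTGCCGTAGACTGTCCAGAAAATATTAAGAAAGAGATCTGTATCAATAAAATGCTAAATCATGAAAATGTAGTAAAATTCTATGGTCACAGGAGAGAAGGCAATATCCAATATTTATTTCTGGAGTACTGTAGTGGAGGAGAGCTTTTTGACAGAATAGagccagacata
CHEK1-218: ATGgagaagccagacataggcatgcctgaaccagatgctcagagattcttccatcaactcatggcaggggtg

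CHEK1-218 was listed at 23.0 FPKM in the H929 overexpression library and 27.0 in the ARP1 one, against 17.5 and 18.4 FPKM in their controls. With the knockdown label, it was listed at 24.0 FPKM in H929 and 12.5 in ARP1, against 22.1 and 16.7 FPKM in their controls. Set against the sum of itself and the full-length forms, it made up 32.9% in the H929 overexpression library and 41.6% in the ARP1 one, against 29.6% and 36.7% in their controls. Under the knockdown label the share was 39.9% in H929 and 30.6% in ARP1, against 38.5% and 38.3% in their controls. The form without the third exon was thus listed in all 8 libraries at 29.6% to 41.6%, with no direction shared by both lines under the knockdown label.

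Of the full-length forms, CHEK1-203 was the most abundant. Its level in H929 was 25.4 FPKM with overexpression, 21.3 in the control of overexpression, 18.1 under the knockdown label and 18.0 in the control of knockdown. In ARP1 the same order gave 17.3, 13.2, 12.8 and 12.3 FPKM. Each H929 library stood above each ARP1 library, and the transcript fit called the difference (limma, log2 0.54, SE 0.10, adjusted p = 0.0402 over 36791 transcripts). CHEK1-216 stood at 12.6 and 12.5 FPKM with overexpression in H929 and ARP1, against 9.43 and 5.88 FPKM in their controls. Its log2 fold change was 0.68 (limma, SE 0.22, adjusted p = 0.910). CHEK1-204 ran the other way, at 5.17 and 3.50 FPKM with overexpression in H929 and ARP1, against 7.56 and 6.54 FPKM in their controls. CHEK1-206 was listed at 1.51 to 6.01 FPKM, CHEK1-213 at no more than 2.03, CHEK1-202 at no more than 0.775, and CHEK1-201 at or near 0 in all 8.

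Among open-ended CHEK1 transcripts, CHEK1-208, an entry of 562 bases, stood at 25.1 FPKM in the H929 overexpression library and 38.5 in the ARP1 one, against 16.4 and 23.5 FPKM in their controls. CHEK1-209 shares the 5′ end with it and was under 0.01 FPKM in 6 of the 8 libraries, but at 6.17 FPKM in the ARP1 overexpression library and 11.4 in the ARP1 control of knockdown. In ARP1 under the knockdown label, CHEK1-209 was at 8.2e-09 FPKM against 11.4 in its control. CHEK1-208 ran the other way there, at 4.59 against 2.26 FPKM, and in H929 it was at 21.7 against 18.5 FPKM. With CHEK1-209 left out, neither the open-ended sum nor the whole CHEK1 sum in ARP1 would be lower under that label. CHEK1-215 ran from 1.95 to 8.86 FPKM and CHEK1-212 from 0 to 4.03, while CHEK1-214 and CHEK1-217 were at or near 0. Such jumps between near-identical entries were also seen in other members. Of 39 member transcripts with a mean of at least 1 FPKM, 9 were under 0.01 FPKM in at least 1 library.

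**Figure D3:**
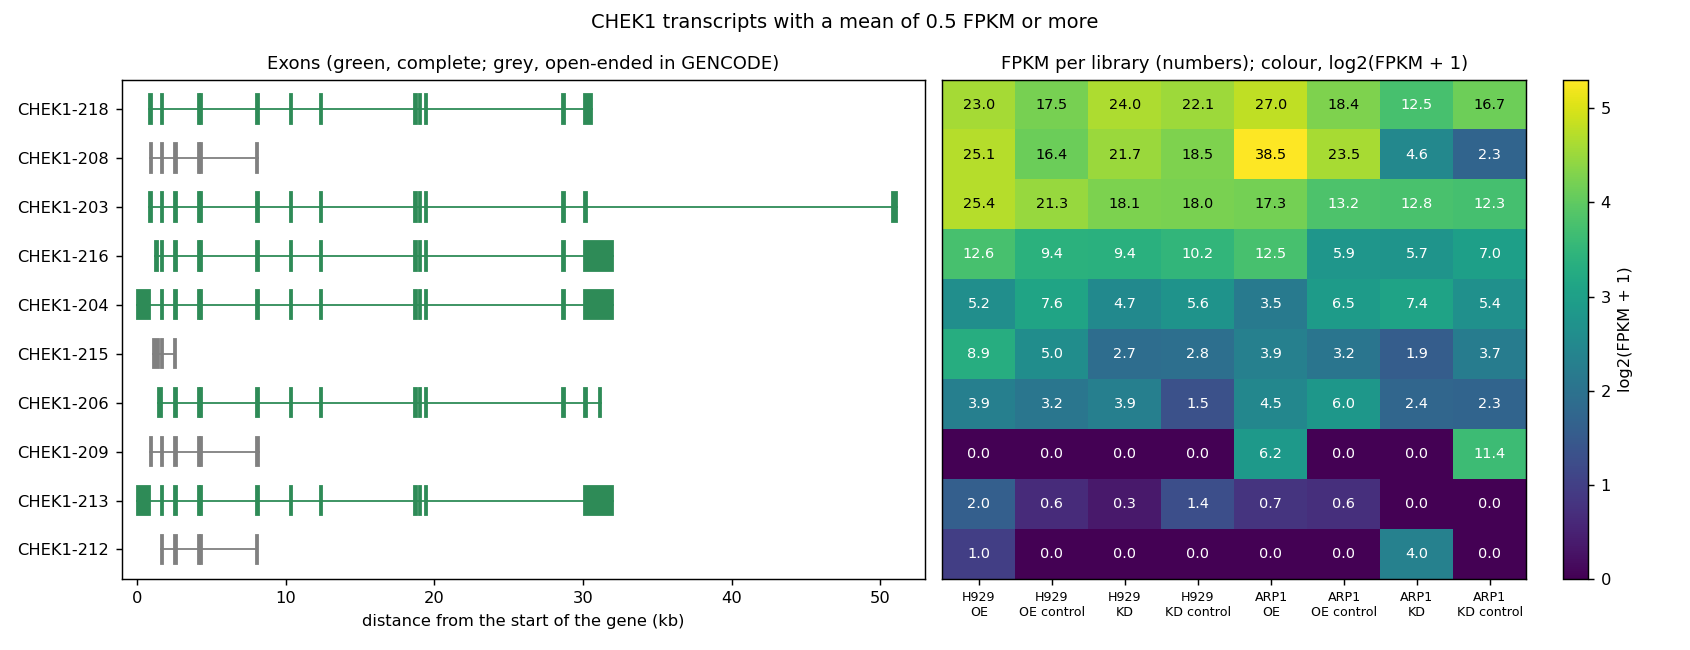
Left, exons of CHEK1 transcripts with a mean of at least 0.5 FPKM against distance from the start of the gene in kb, green for complete and grey for open-ended entries; right, FPKM of each in the 8 libraries, coloured by log2(FPKM + 1). CHEK1-218 lacks the third exon and is listed at 12.5 to 27.0 FPKM, and the open-ended CHEK1-209 is near 0 in all libraries except ARP1 overexpression (6.17 FPKM) and the ARP1 control of knockdown (11.4 FPKM).

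In the overexpression comparison, none of the 10 members was called by limma, and none reached an unadjusted p of 0.05. CDC25B, ATRIP and CHEK1 lay just above it (unadjusted p = 0.0511, 0.0546 and 0.0556 by limma). Over all genes 0.00671% were called, all of them lower, and 4.45% reached an unadjusted p of 0.05. The log2 fold change was positive for 7 of 10 members, against 48.4% of all genes, with a median of 0.06 against -0.01 over all genes. In H929 and in ARP1 alike, no member differed from its control by 1.5-fold or more, against 3.73% of genes higher and 5.2% lower by that fold in H929 and 4.56% and 6.91% in ARP1.

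The comparison of knockdown-labelled libraries with their controls also called none of the 10 members by limma, and none reached an unadjusted p of 0.05. CDC25A lay just above it (unadjusted p = 0.0511 by limma). Over all genes 0.0134% were called and 9.14% reached an unadjusted p of 0.05. The log2 fold change was negative for 8 of 10 members, against 52.1% of all genes, with a median of -0.23 against -0.02. In the fit without the ARP1 library, 6 of 10 were positive and the median was 0.01. That fit takes the line difference from the other genotypes. Within H929, log2 ratios to its own control were negative for ATRIP (-0.38), PKMYT1 (-0.17), CDC25A (-0.15), CLSPN (-0.12), WEE1 (-0.08) and ATR (-0.08). They were positive for CDC25B (0.17), CDC25C (0.16), CHEK1 (0.07) and CHEK2 (0.002). In ARP1, 2 members, ATR and CDC25A, were lower by 1.5-fold or more in the knockdown-labelled library, against 13.5% of all genes, and in H929 none was, against 4.78%. None was higher by that fold in either line, against 4.72% of genes in H929 and 12.4% in ARP1.

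**Figure D4:**
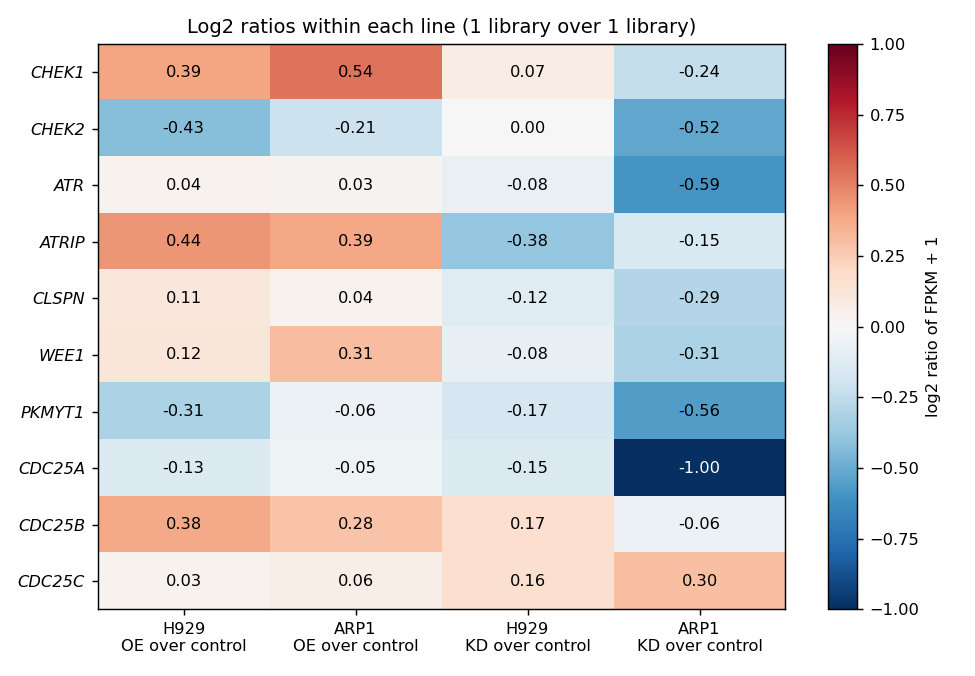
Log2 ratios of FPKM + 1 within each line, 1 library over 1 library, for the 10 members (rows) and overexpression over control and knockdown label over control in H929 and ARP1 (columns), red for higher and blue for lower. The ARP1 knockdown-labelled column is the bluest, down to -0.997 for CDC25A, and CHEK1 is positive in all columns except that one.

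The difference between the overexpression effect and the knockdown-labelled effect was called for none of the members by limma, against 0.0134% of all genes. An unadjusted p of 0.05 was reached by 1 member, ATRIP, against 7.98% of genes. The control of overexpression set against the control of knockdown likewise had 0 of 10 members called, against 0.0537% of all genes, and 0 at an unadjusted p of 0.05, against 10.7%. The controls shared by these contrasts are the same libraries. The log2 difference between controls was 0.18 for CHEK1 (SE 0.20) and -0.31 for ATRIP (SE 0.18), which is of the size of several differences between a genotype and its own control.

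ATR, the apical kinase, at chr3:142449235-142578826 on the minus strand, stood at 18.9 FPKM in the H929 overexpression library and 12.5 in the ARP1 one, against 18.4 and 12.3 FPKM in their controls. Its knockdown-labelled libraries held 15.4 FPKM in H929 and 8.96 in ARP1, against 16.3 and 13.96 FPKM in their controls. Overexpression libraries and their controls were close in each line, and the ARP1 knockdown-labelled library was the lowest of the 8. The log2 fold change was 0.03 for overexpression (SE 0.17) and -0.33 for the knockdown label (limma, SE 0.17, 95% interval -0.74 to 0.07, adjusted p = 0.576). The full-length ATR-201 made up most of the signal, at 8.52 to 16.7 FPKM.

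ATRIP, which brings ATR to single-stranded DNA coated with replication protein A, lies at chr3:48446710-48467645 on the plus strand. Its level was 11.3 and 11.2 FPKM with overexpression in H929 and ARP1, against 8.05 and 8.32 FPKM in their controls. The libraries labelled knockdown had 9.16 FPKM in H929 and 7.82 in ARP1, against 12.3 and 8.81 FPKM in their controls. Each overexpression library stood above its own control, but the H929 control of knockdown was higher than either. The log2 fold change with overexpression was 0.41 (limma, SE 0.18, 95% interval -0.01 to 0.84, adjusted p = 0.994). Without open-ended transcripts it was 0.08 (SE 0.17). ATRIP-208, an open-ended entry, was at 3.31 and 1.68 FPKM with overexpression in H929 and ARP1 and under 0.01 in both controls, while the full-length ATRIP-201 stood at 6.33 and 6.54 against 6.20 and 7.17 FPKM.

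CLSPN, whose product claspin bridges ATR and CHK1 at the replication fork, lies at chr1:35720218-35769967 on the minus strand. It stood at 20.6 FPKM with overexpression in H929 and 16.8 in ARP1, against 19.1 and 16.4 FPKM in their controls. With the knockdown label, it stood at 17.6 FPKM in H929 and 9.26 in ARP1, against 19.2 and 11.6 FPKM in their controls. Both knockdown-labelled libraries were lower than their controls by less than the gap between the lines, with a log2 fold change of -0.21 (limma, SE 0.20, adjusted p = 0.730).

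CHEK2, the effector kinase of the ATM branch, at chr22:28687743-28742422 on the minus strand, stood at 11.2 FPKM with overexpression in H929 and 22.2 in ARP1, against 15.3 and 25.9 FPKM in their controls. Its knockdown-labelled libraries held 13.9 FPKM in H929 and 16.9 in ARP1, against 13.8 and 24.6 FPKM in their controls. The overexpression libraries were lower than their controls in both lines (log2 -0.32, limma, SE 0.19, adjusted p = 0.994), while the knockdown-labelled library was level with its control in H929 and below it in ARP1 (log2 -0.26, SE 0.19). Without open-ended transcripts these log2 fold changes were -0.11 and 0.02. Within CHEK2, entries with the same coding sequence replaced each other. CHEK2-201 was at 0.01 FPKM in the H929 overexpression library, where CHEK2-208 was at 5.58, and CHEK2-201 was at 6.24 FPKM in its control. The transcripts with the coding sequence of 1629 bases summed to 5.59 FPKM with overexpression in H929 and 10.4 in ARP1, against 7.42 and 8.25 FPKM in their controls.

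WEE1, the nuclear kinase that places the inhibitory phosphate on CDK1, at chr11:9573681-9593457 on the plus strand, stood at 40.0 FPKM with overexpression in H929 and 48.3 in ARP1, against 36.7 and 38.8 FPKM in their controls. The libraries labelled knockdown had 34.8 FPKM in H929 and 31.1 in ARP1, against 36.8 and 38.9 FPKM in their controls. Its overexpression libraries were the highest and its knockdown-labelled libraries the lowest of each line, and log2 fold changes were 0.21 (SE 0.15) and -0.20 (SE 0.15), with adjusted p = 0.994 and 0.657 by limma. WEE1-201, whose coding sequence of 1296 bases is shorter than the 1938 bases of WEE1-202, made up 26.3% to 38.0% of these forms.

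PKMYT1, the membrane-bound kinase that acts beside WEE1, at chr16:2968024-2980539 on the minus strand, stood at 32.4 FPKM with overexpression in H929 and 47.8 in ARP1, against 40.5 and 49.8 FPKM in their controls. Under the knockdown label it stood at 41.5 FPKM in H929 and 29.1 in ARP1, against 46.7 and 43.5 FPKM in their controls. All 4 altered libraries were lower than their own controls. The fit gave log2 fold changes of -0.19 (SE 0.25) and -0.36 (SE 0.25) and adjusted p = 0.994 and 0.6298 by limma. Without the H929 overexpression library the fit gave 0.14 for overexpression, and without the ARP1 knockdown-labelled library it gave 0.01 for that label. Such a fit takes the line difference from the other genotypes. Against its own control, the remaining library had a log2 ratio of -0.06 (ARP1, overexpression) and -0.17 (H929, knockdown label).

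CDC25A, the phosphatase that drives S phase entry and is destroyed after CHK1 phosphorylation, had the lowest log2 fold change of the members under the knockdown label in the fit over both lines. The gene lies at chr3:48157146-48188402 on the minus strand. It stood at 35.2 FPKM in the H929 knockdown-labelled library and 14.1 in the ARP1 one, against 39.1 and 29.1 FPKM in their controls. With overexpression it stood at 42.0 FPKM in H929 and 33.3 in ARP1, against 46.2 and 34.5 FPKM in their controls. The low ARP1 library was well apart from the other 7, which ran from 29.1 to 46.2 FPKM. The log2 fold change under the knockdown label was -0.57 (limma, SE 0.24, 95% interval -1.15 to 0.004, adjusted p = 0.550), made of -0.15 in H929 and -0.997 in ARP1. Without the H929 knockdown-labelled library it was -1.01 and past the threshold (limma, adjusted p = 0.0250), in a fit that called 6.82% of all genes and in which the lone ARP1 library was assumed to vary like the other groups. Without the ARP1 one it was -0.13. An interaction of line and genotype, in which the controls of each line were joined and which was chosen after seeing the data, put the H929 effect 0.85 above the ARP1 effect on the log2 scale (limma, SE 0.29, adjusted p = 0.618). That fit called 0 genes in all, with 1161 under an unadjusted 0.05.

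Complete CDC25A transcripts carried the ARP1 difference as well, at 9.48 FPKM in the knockdown-labelled library against 18.3 in its control, and so did open-ended ones, at 4.59 against 10.8 FPKM. The main complete forms differ by an exon of 120 bases at chr3:48180721-48180840 that CDC25A-202 lacks. It is shown in capitals from CDC25A-201 (GENCODE release 29, GRCh38), with 12 bases on either side.
CDC25A-201: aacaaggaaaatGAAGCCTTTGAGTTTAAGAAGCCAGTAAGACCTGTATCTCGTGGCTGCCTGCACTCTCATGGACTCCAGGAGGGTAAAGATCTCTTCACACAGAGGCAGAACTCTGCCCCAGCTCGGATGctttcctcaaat

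The form without this exon made up 24.5% of the pair in the H929 overexpression library and 10.7% in the ARP1 one, against 21.0% and 23.0% in their controls. With the knockdown label, it made up 18.8% in H929 and 19.4% in ARP1, against 18.9% and 25.6% in their controls. The ARP1 overexpression library thus held the lowest share, and the other 7 lay between 18.8% and 25.6%.

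CDC25B, the phosphatase that starts CDK1 activation at the centrosome, at chr20:3786772-3806121 on the plus strand, stood at 83.6 FPKM with overexpression in H929 and 47.7 in ARP1, against 64.0 and 38.9 FPKM in their controls. Its knockdown-labelled libraries held 62.1 FPKM in H929 and 39.4 in ARP1, against 55.1 and 41.1 FPKM in their controls. The overexpression library was the highest of each line, with a log2 fold change of 0.33 (limma, SE 0.14, 95% interval -0.002 to 0.667, adjusted p = 0.994). CDC25B-205, its most abundant transcript, stood at 51.0 and 28.0 FPKM with overexpression in H929 and ARP1, against 33.2 and 21.8 FPKM in their controls, with a log2 fold change of 0.48 (limma, SE 0.17, adjusted p = 0.946).

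CDC25C, the phosphatase of mitotic entry that CHK1 marks for 14-3-3 binding, at chr5:138285265-138338355 on the minus strand, had the smallest ratio of its highest to its lowest library among the members. It stood at 10.9 FPKM in the H929 knockdown-labelled library and 11.1 in the ARP1 one, against 9.69 and 8.81 FPKM in their controls. With overexpression it stood at 9.75 FPKM in H929 and 9.42 in ARP1, against 9.51 and 8.97 FPKM in their controls. Both knockdown-labelled libraries stood above the other 6, and CDC25C was the member positive under that label in both lines, with a log2 fold change of 0.23 (limma, SE 0.15, 95% interval -0.12 to 0.58, adjusted p = 0.619). Without open-ended transcripts it was 0.15 (SE 0.16).

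Across single transcripts, limma called none of the 45 tested member transcripts with overexpression, against 0.00272% of all transcripts, and 6 reached an unadjusted p of 0.05, against 5.09%. Those 6 were CHEK1-216, ATRIP-208, WEE1-201, PKMYT1-211, CDC25A-204 and CDC25B-205, all higher with overexpression. Under the knockdown label none was called, against 0.00272%, and 3 reached an unadjusted p of 0.05, against 7.51%. These were CHEK2-202, ATR-208 and WEE1-207, all lower under that label.

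Set against ARP1, H929 held more ATR, CLSPN, CDC25A and CDC25B and less CHEK2. By limma, 5 of 10 members were called between H929 and ARP1, against 27.1% of all genes. CDC25B was higher in H929, at 55.1 to 83.6 FPKM over its 4 libraries against 38.9 to 47.7 FPKM in the 4 of ARP1 (log2 0.64, SE 0.10, adjusted p = 0.00630). CDC25A was higher in H929 too, at 35.2 to 46.2 against 14.1 to 34.5 FPKM (log2 0.60, SE 0.17, adjusted p = 0.0414 by limma). ATR stood at 15.4 to 18.9 FPKM in H929 against 8.96 to 13.96 in ARP1 (log2 0.51, SE 0.12, adjusted p = 0.0234 by limma), and CLSPN at 17.6 to 20.6 against 9.26 to 16.8 FPKM (log2 0.51, SE 0.14, adjusted p = 0.0400 by limma). CHEK2 was lower in H929, at 11.2 to 15.3 FPKM against 16.9 to 25.9 in ARP1 (log2 -0.68, SE 0.13, adjusted p = 0.0135 by limma).

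For ATR, CLSPN, CDC25A and CDC25B every H929 library lay above every ARP1 library, which held for 13.7% of all genes, and for CHEK2 every H929 library lay below, which held for 13.3%. CHEK1 was at 80.7 to 107 FPKM in H929 against 51.6 to 114 in ARP1 (log2 0.27, SE 0.14, 95% interval -0.07 to 0.61, adjusted p = 0.206 by limma). Without open-ended transcripts the CHEK1 difference was 0.33 and past the threshold (SE 0.10, adjusted p = 0.0487). ATRIP, WEE1, PKMYT1 and CDC25C had log2 differences of 0.15, -0.07, -0.06 and 0.06, with adjusted p of 0.411 or more by limma. Of the 5 calls, CDC25B held in 18 of 18 alternative settings, ATR in 14, CHEK2 in 12, CDC25A in 10 and CLSPN in 8. Single transcripts gave 2 calls by limma, CHEK1-203 and CDC25B-205 (log2 0.57, adjusted p = 0.0496), against 6.5% of all transcripts.

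**Figure D5:**
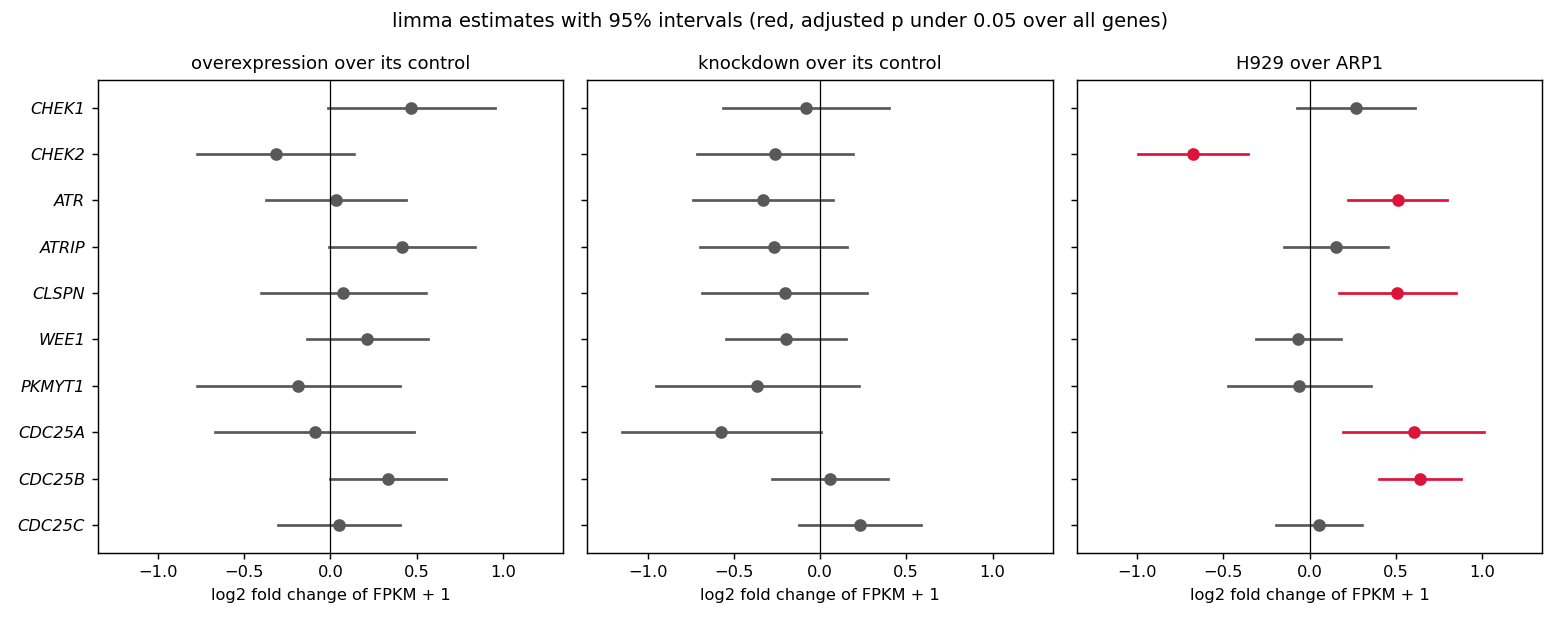
limma log2 fold changes (points) with 95% intervals (lines) for the 10 members: overexpression over its control, the knockdown label over its control, and H929 over ARP1 (left to right). Red marks an adjusted p under 0.05 over all 14905 genes, which only CHEK2, ATR, CLSPN, CDC25A and CDC25B reach, in the panel of the lines.

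Promoter sequence was looked up because CDC25A and CDC25C, members of 1 family, lay at opposite ends under the knockdown label in the fit over both lines. The same held for the ratios in ARP1 but not in H929, where the ends were ATRIP (-0.38) and CDC25B (0.17). RefSeq promoters (GRCh38.p14) were held for 8 of the 10 members, as 17 entries, and 3 motifs of cell cycle promoters were searched on both strands in the 250 bases before each start. TTTNNCGC, bound by E2F factors, was present in 2 of the 17 entries, those of CDC25A and CHEK2, and in 5.92% of all 35116 promoters. TTTGAA, the core of the cell cycle genes homology region, was present in 1 of the 17 entries, of CDC25C, and in 13.3% of all promoters. CCAAT, bound by NF-Y, was present in 12 of the 17 entries and in 32% of all promoters. Some entries are overlapping windows of the same gene, so the same site can be counted more than once. Both windows are printed 5′ to 3′ on the minus strand, with TTTNNCGC in capitals for CDC25A (chr3:48188418-48188667) and TTTGAA and CCAAT, read as its reverse complement, in capitals for CDC25C (chr5:138331805-138332054). The CDC25A window also held 2 CCAAT matches, which are left in small letters. The capital matches do not overlap, and a match describes letters, not binding.
CDC25A: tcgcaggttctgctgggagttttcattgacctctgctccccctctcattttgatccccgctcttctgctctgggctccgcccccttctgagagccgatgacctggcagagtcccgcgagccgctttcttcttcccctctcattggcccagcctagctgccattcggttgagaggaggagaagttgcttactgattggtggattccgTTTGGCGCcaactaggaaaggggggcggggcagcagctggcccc
CDC25C: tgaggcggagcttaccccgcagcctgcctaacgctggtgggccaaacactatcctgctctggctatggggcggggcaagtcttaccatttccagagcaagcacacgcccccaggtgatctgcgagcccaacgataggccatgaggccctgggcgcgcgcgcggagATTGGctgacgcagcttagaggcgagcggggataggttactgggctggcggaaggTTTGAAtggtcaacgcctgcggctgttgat

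Other genes of the pathway came from 6 lists, and limma called none of their genes for overexpression or for the knockdown label. Over all genes 0.00671% and 0.0134% were called. Over all genes, 48.4% were positive with overexpression (median -0.01) and 52.1% negative under the knockdown label (median -0.02). For ratios within a line under that label, the median over all genes was -0.03 in ARP1 and 0.0009 in H929. Of 12 genes of ATR sensors and fork proteins, 9 had a positive log2 fold change with overexpression (median 0.11) and 8 a negative one under the knockdown label (median -0.09). TIPIN, which with TIMELESS steadies the fork, was at 21.0 FPKM in H929 and 9.65 in ARP1 under that label, against 28.7 and 16.1 FPKM in their controls (log2 -0.56, SE 0.23, adjusted p = 0.539 by limma). TOPBP1, the activator of ATR, was at 60.6 and 56.2 FPKM with overexpression in H929 and ARP1, against 51.1 and 48.0 FPKM in their controls.

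Of 11 genes of the ATM branch, 5 were positive with overexpression (median -0.01) and 7 negative under the knockdown label (median -0.05). BRCA1, which acts in repair by homologous recombination, stood apart within the list, at 47.1 FPKM in H929 and 63.2 in ARP1 under that label, against 32.9 and 36.9 FPKM in their controls. It was higher than its control in both lines, with a log2 fold change of 0.63 (limma, SE 0.16, adjusted p = 0.494).

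Of 9 cyclin-dependent kinases and cyclins of S and M phase, 8 were positive with overexpression (median 0.27) and 9 negative under the knockdown label (median -0.25), and 8 were lower in the control of overexpression than in the control of knockdown (median -0.30). Those comparisons share control libraries. CDK1, the kinase on which the relay converges, was at 62.6 FPKM in H929 and 46.5 in ARP1 under the knockdown label, against 83.4 and 74.0 FPKM in their controls (log2 -0.53, SE 0.15, adjusted p = 0.494 by limma). In ARP1 alone 9 of the 9 ratios under that label were negative (median -0.48), and in H929 alone 8 were (median -0.08). CCNA2, which encodes cyclin A2, was at 144 and 99.5 FPKM with overexpression in H929 and ARP1, against 123 and 72.5 FPKM in their controls.

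Of 12 mitotic entry kinases and partners, 10 were positive with overexpression (median 0.14) and 12 negative under the knockdown label (median -0.17). AURKA, the kinase of spindle poles, was at 62.1 FPKM in H929 and 46.5 in ARP1 under that label, against 73.8 and 55.3 FPKM in their controls. In ARP1 alone 12 of the 12 ratios were negative under that label (median -0.23), and in H929 alone 7 were (median -0.03). Of these 12 genes, 9 were lower in the control of overexpression than in the control of knockdown (median -0.12). Those comparisons share control libraries. Of 17 genes of protein turnover and 14-3-3 proteins, 14 were positive with overexpression (median 0.15) and 15 negative under the knockdown label (median -0.12). FZR1, an activator of the anaphase-promoting complex, was an exception at 27.6 and 31.4 FPKM under that label in H929 and ARP1, against 20.8 and 22.7 FPKM in their controls. In ARP1 alone 15 of the 17 ratios were negative under that label (median -0.33), and in H929 alone 6 were (median 0.04). Of the 9 tested of 11 brakes and phosphatases, 3 were positive with overexpression (median -0.01) and 8 negative under the knockdown label (median -0.23). PPM1D, the phosphatase that switches the checkpoint off, was at 8.28 FPKM in H929 and 7.81 in ARP1 under that label, against 10.8 and 9.95 FPKM in their controls.

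The genes whose pattern was most like CHEK1 were ranked by Pearson r over the 8 libraries with each line's mean subtracted, among 10496 protein-coding genes. The highest were SLC2A1, a glucose transporter, at 0.99, then ARL1, SLC4A11, LYSMD2 and KIF5B at 0.98. Among the 5 lowest were SURF1, which acts in cytochrome c oxidase assembly, at -0.98, EYA4 at -0.98 and SERPINH1, a collagen chaperone, at -0.97. SLC2A1 was at 21.8 FPKM with overexpression in H929 and 11.2 in ARP1, against 17.5 and 8.17 FPKM in their controls. Among members the same r was 0.92 for WEE1, 0.88 for CLSPN, 0.68 for CDC25A, 0.65 for CDC25B, 0.62 for ATRIP, 0.49 for ATR, 0.41 for PKMYT1, 0.14 for CHEK2 and -0.36 for CDC25C. In the same order, their ranks among the 10496 genes were 89, 236, 1790, 1991, 2260, 3087, 3531, 4898 and 7396. These values are descriptions: all genes were read in the same 8 libraries, and the ranking was made over them.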

How the data were processed

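The authors deposited 1 table of FPKM per transcript for the 8 libraries. The table calls its values means, and how many runs lie behind a column is not stated. Per the labels' protocols, poly(A) RNA was sequenced as paired ends; per the submitters' processing notes the tools were Bowtie 0.12.2, HISAT2 2.0 and StringTie 1.3.0. The notes name a mouse build, while the identifiers are human, so the build used is not known, nor is the use of strand. Read depth is unknown, so no counting error is given. Summed FPKM was 631871 to 693299 per library.

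Transcripts were joined to GENCODE release 29 (87707 matched, 502 not) and summed per gene. Genes that reached FPKM 1 in 2 or more libraries were kept, and their log2(FPKM + 1) was fitted in limma 3.58.1 (R 4.3.3) with genotype and cell line as terms, all 8 libraries, a variance trend and 3 residual degrees of freedom. Tests were two-sided, adjusted by Benjamini-Hochberg over 14905 genes or 36791 transcripts. The pairing is the cell line, given by the labels: each line holds every genotype. The fit was tested on simulated data, but the outcome is not given here, so no error rate is claimed from it. Named genes are all members, their transcripts with a mean of at least 1 FPKM, all CHEK1 transcripts, and up to 4 genes per list, those with the largest ratio shared by both lines. Some genes that this rule takes are not reported here. Members and lists were chosen with earlier results of these data known. Sequences are from GENCODE release 29 and RefSeq (GRCh38.p14).

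HSCB overlaps CHEK2, TREX1 overlaps ATRIP, KREMEN2 and PAQR4 overlap PKMYT1, FAM53C overlaps CDC25C, and ACRV1 and STT3A overlap CHEK1. Without strand, reads of pairs on opposite strands cannot be told apart. TREX1 lies on the same strand as ATRIP, and some genes that overlap CHEK1 share its strand, so strand would not part those reads. The split between transcripts that share exons is an estimate.

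Alternatives changed the pseudocount to 0.1, the filter to none or to FPKM 5, and the scaling to median ratios or to the same sum. Others used no transcripts under 300 nt, protein-coding transcripts alone, weighting by length, no replicate block, 4 libraries of a comparison, other or pooled controls, no trend, and each library left out. Sums without open-ended transcripts and the line by genotype term were added after seeing the data.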

Additional observations from a re-analysis of the deposited data

Results flagged for a closer look

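Dixon's test for a sample far from the others was applied to each member within each line, 20 groups of 4 libraries. Among replicates of the same condition, chance passes about 1 in 20. The 4 libraries of a line are 4 genotypes and not replicates, so a mark cannot part a genotype effect from a stray library. The test marked CHEK1 in the H929 overexpression library, at 107 FPKM against 80.7 to 84.8 FPKM in the other 3 libraries of that line. CHEK1 is the gene that this library was labelled as overexpressing. It also marked CDC25C in the H929 knockdown-labelled library, at 10.9 FPKM against 9.51 to 9.75 FPKM in the other 3. Both marks passed the limit narrowly, and in ARP1 neither gene passed it.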

How the results depend on the processing

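Read depth is unknown, n is 2 per genotype, and a library left out takes 1 of the 3 residual degrees of freedom. No member was called with overexpression under any setting run (0 to 0 over libraries left out), nor for the difference of effects, nor between the controls. For the knockdown label the count was 0 to 1 over libraries left out, the 1 being CDC25A without the H929 knockdown-labelled library, a fit that called 6.82% of all genes against 0.0134% with all libraries, and 0 otherwise. The count for H929 against ARP1 was 5, and 3 with no filter, 3 with no trend, 6 without open-ended transcripts, and 1 to 4 over libraries left out. It was 1 without either overexpression library or either control of overexpression, 2 without either control of knockdown and 4 without either knockdown-labelled library. The 2 transcripts called between the lines were 3 with FPKM of at least 5, 1 with a pseudocount of 0.1, 0 with no filter, 1 with median-ratio scaling, 0 with no trend and 0 to 0 over libraries left out, and the knockdown label gave 1 member transcript with no filter. Where a count moved, the cause was not tested.

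Without the replicate block for the line, 0 members were called in the comparisons of genotypes, and no call changed. No called value changed sign. Uncalled values changed sign in 7 of 220 member values for overexpression and 9 of 220 for the knockdown label. CHEK1 ran from 0.23 to 0.71 with overexpression and from -0.37 to 0.21 under the knockdown label, the extremes being without the ARP1 or H929 library of that genotype. With overexpression PKMYT1 was 0.14 without the H929 library, CLSPN was -0.13 without the H929 control and -0.08 without the ARP1 library, and CDC25A was 0.15 against the other control of the line. Under the knockdown label PKMYT1 was 0.01 and CLSPN 0.03 without the ARP1 library, and ATRIP was 0.04 against the other control of the line. A fit with a library left out takes the line difference from the other genotypes. Its value is therefore not the ratio of the remaining library to its own control.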
